A study of Mus musculus with 12 samples.

Results

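The 9 genes described here encode the main carriers by which hepatocytes take up bile acids and organic anions from portal blood and pass them into bile or back to blood. They were taken by symbol from the deposited table of liver expression values, where each of the 9 matched 1 row among 35275 genes. The 4 uptake carriers are Slc10a1, Slco1a1, Slco1a4 and Slco1b2, the 3 exporters of the canalicular membrane are Abcb11, Abcb4 and Abcc2, and the 2 exporters of the basolateral membrane are Abcc3 and Abcc4. The study sequenced RNA of 12 mouse samples labelled liver, 3 biological replicates in each of 4 groups. The labels give wild-type mice on vivarium chow (WT chow), wild-type mice on high fat diet (WT HFD), mice labelled Hnf4a liver knockout on vivarium chow (KO chow) and mice with that knockout label on high fat diet (KO HFD). Hnf4a encodes a nuclear receptor that drives much of the hepatocyte programme, and the series asks what its loss and the diet each change. The labels used here give no Cre driver, sex, age or length of feeding.

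Bile acids are made from cholesterol in hepatocytes, secreted into bile, recovered in the ileum and returned to the liver with portal blood. Slc10a1 (NTCP) takes them up together with sodium, and the Slco carriers (OATPs) take up bile acids, bilirubin conjugates, hormones and many drugs without sodium. Abcb11 (BSEP) pumps bile salts into the canaliculus, Abcb4 (MDR2) moves phosphatidylcholine into bile, and Abcc2 (MRP2) exports conjugated organic anions. Abcc3 and Abcc4 (MRP3 and MRP4) return conjugates and bile acids to blood. When bile acids accumulate in hepatocytes, the receptor FXR (Nr1h4) is known to raise Abcb11, Slc51b and the repressor Nr0b2, while uptake carriers and the synthetic enzymes Cyp7a1 and Cyp8b1 are repressed.

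RefSeq start-site sequences were available for 8 of the 9 members, with 10 starts among them, and each window of 300 bases ran from 250 bases before to 50 bases after the start. Windows of 4 members are shown because the results turn on these genes. Each is printed from 250 bases before to 20 bases after its start, 5′ to 3′ on the gene's strand, from GRCm38.p6, as chr12:80968060-80968329 (minus strand, the nearer of 2 Slc10a1 starts), chr6:141629268-141629537 (plus, Slco1b2), chr2:69342597-69342866 (minus, Abcb11) and chr19:43782058-43782327 (plus, Abcc2, whose RefSeq start lies 116 bases from that of the deposited table). Capitals mark matches to the motifs searched.
Slc10a1: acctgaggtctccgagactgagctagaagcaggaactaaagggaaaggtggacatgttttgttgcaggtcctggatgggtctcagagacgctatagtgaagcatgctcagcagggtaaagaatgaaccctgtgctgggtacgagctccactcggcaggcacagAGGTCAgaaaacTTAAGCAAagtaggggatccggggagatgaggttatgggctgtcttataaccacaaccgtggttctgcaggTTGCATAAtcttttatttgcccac
Slco1b2: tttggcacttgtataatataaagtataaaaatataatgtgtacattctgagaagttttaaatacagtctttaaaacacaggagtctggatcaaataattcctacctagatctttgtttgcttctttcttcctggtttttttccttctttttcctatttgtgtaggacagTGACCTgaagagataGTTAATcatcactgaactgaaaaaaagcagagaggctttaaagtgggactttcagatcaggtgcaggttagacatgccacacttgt
Abcb11: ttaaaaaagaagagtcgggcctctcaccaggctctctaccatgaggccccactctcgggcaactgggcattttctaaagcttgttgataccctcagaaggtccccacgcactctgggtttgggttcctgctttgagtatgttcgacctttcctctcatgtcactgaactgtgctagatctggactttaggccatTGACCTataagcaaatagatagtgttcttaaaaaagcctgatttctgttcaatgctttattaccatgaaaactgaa
Abcc2: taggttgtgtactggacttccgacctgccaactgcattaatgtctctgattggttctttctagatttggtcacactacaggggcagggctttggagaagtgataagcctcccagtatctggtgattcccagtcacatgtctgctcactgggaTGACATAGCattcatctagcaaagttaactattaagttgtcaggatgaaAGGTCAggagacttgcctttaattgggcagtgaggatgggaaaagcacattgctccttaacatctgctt
Both strands were searched for AGGTCA (the core that nuclear receptors bind), for 2 such cores as an inverted repeat split by 1 base, for GTTAAT (the core of HNF1 sites), for CAAAGTCCA (an HNF4 site), for TGACNNNGC (an antioxidant response element core) and for TTGCNNAA (a C/EBP site). AGGTCA began 87 bases before the Slc10a1 start, 81 before Slco1b2, 56 before Abcb11 and 49 before Abcc2, in the last case with TGACATAGC 98 bases before the start. Slco1a1 held AGGTCA at 134 and at 24 bases before its start. Slco1b2 also held GTTAAT 66 bases before the start, and Slc10a1 held TTGCNNAA at 75 and 4 bases before it. Abcc4 held TGACNNNGC at 25 and TTGCNNAA at 233 bases before 1 of its starts, and TGACNNNGC at 23 bases before the other. Neither the Slco1a4 nor the Abcb4 window held any of the motifs, and no member's window held an exact CAAAGTCCA or an exact inverted repeat. Only exact matches were searched, so a repeat with a changed base, such as aggccatTGACCT in the Abcb11 window, was not counted. Of 32851 windows of this length, 16.3% held AGGTCA, 0.00913% the inverted repeat, 7.1% GTTAAT, 0.475% CAAAGTCCA, 12.4% TGACNNNGC and 10.8% TTGCNNAA. A match is a description of the letters only.

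The libraries need a description before the transporters, since 2 of the 3 WT chow libraries stood apart. Reads on genes numbered 15705196 to 20311766 per library, and 10 of the 12 libraries correlated with one another at Pearson r = 0.931 to 0.988 across genes. WT chow replicate 3 held almost no hepatocyte RNA: 8 hepatocyte markers (Alb, Apoa1, Ttr and others) summed to 19.1 FPKM against 36500 to 66110 in those 10 libraries, while 8 brown fat markers summed to 19250 FPKM against 35.8 to 205 in the other 11, and Ucp1, their defining gene, stood at 2339 FPKM. WT chow replicate 2 had a hepatocyte sum of 29270 FPKM, and its 8 genes of male-biased liver expression summed to 77.6 FPKM against 3858 to 13580 in the 10. The genotype labels were not borne out by Hnf4a itself, at 158, 132 and 130 FPKM in KO chow and 108, 98.8 and 138 FPKM in KO HFD against 133, 116 and 120 FPKM in WT HFD and 126, 75.8 and 0.0973 FPKM in WT chow. Which part of Hnf4a the knockout removes is not given in the sources used here, so KO below means the libraries labelled KO. Each limma test of single genes is therefore given for all 12 libraries and for the 10 without WT chow 2 and 3. In the 10, WT chow is 1 library assumed to vary like the other groups. Tests of ratios between members used all libraries of the groups compared. On the 10, limma-voom is given only for KO and WT on high fat diet and for the diets in KO. In whole tissue, fewer hepatocytes and less RNA per hepatocyte cannot be told apart.

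Levels are FPKM, in which fragment counts are divided by gene length and depth, so that they can be compared between genes. Over the 10 libraries Slco1b2 was the most abundant of the 9 at 307 ± 79.1 FPKM (mean ± SD, n = 10), followed by Slc10a1 at 282 ± 72.1 FPKM. These neighbours changed order in 3 of 10 libraries, Slco1b2 being the higher in 7. Abcb11 (79.9 ± 28.2), Abcb4 (62.8 ± 14.0), Abcc2 (54.2 ± 18.8), Slco1a1 (53.5 ± 27.7) and Abcc3 (48.1 ± 12.7 FPKM) formed a middle band in which each neighbour overlapped the next within 1 SD, and Abcb11 exceeded Abcb4 in 8 of 10 libraries. Slco1a4 followed at 14.7 ± 6.28 FPKM and Abcc4 at 0.506 ± 0.516 FPKM, both in that order in 10 of 10 libraries. Abcc4 rested on 15 to 202 reads in these libraries.

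Slc10a1 (ENSMUSG00000021135, chr12:80953185-80968079, GRCm38) stood at 379, 19.0 and 0.181 FPKM in WT chow, 314, 293 and 256 in WT HFD, 337, 299 and 258 in KO chow and 143, 192 and 345 FPKM in KO HFD. WT chow replicates 2 and 3 lay far below every other library, and the 3 KO HFD libraries ran from the lowest to nearly the highest of the remaining 10. Mean Slc10a1 (± SD, n = 3) was 287.6 ± 29.4 FPKM in WT HFD, 298.4 ± 39.6 in KO chow and 226.5 ± 106 in KO HFD.

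Slco1b2 (ENSMUSG00000030236, chr6:141629518-141686646), the mouse counterpart of the human hepatic OATP1B carriers, stood at 320.4, 3.23 and 0.128 FPKM in WT chow, 377, 343 and 331 in WT HFD, 399, 333 and 322 in KO chow and 124, 286 and 229 FPKM in KO HFD. The 3 KO HFD libraries all lay below every library of WT HFD and KO chow. The first WT chow library lay just under those 2 groups. Group means were 350.5 ± 23.9, 351.7 ± 41.7 and 213.3 ± 82.1 FPKM in WT HFD, KO chow and KO HFD.

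Slco1a1 (ENSMUSG00000041698, chr6:141907282-141946962), a carrier that is more abundant in male than female mouse liver, stood at 104.5, 0.870 and 0.233 FPKM in WT chow, 93.4, 47.1 and 43.4 in WT HFD, 60.2, 42.0 and 32.6 in KO chow and 29.4, 17.9 and 64.9 FPKM in KO HFD. Its groups overlapped throughout, and its spread among the 10 libraries was wide. The low value of WT chow replicate 2 came with that library's low sum of male-biased genes. Its 5 sex-chromosome genes (Xist and 4 Y-linked genes) summed to 1.72 FPKM against 23.7 to 41.5 in the 10 libraries. The Y-linked genes were low, Ddx3y at 0.427 and Eif2s3y at 0.937 FPKM against 7.01 to 17.6 and 14.5 to 20.8. Xist was not high, at 0.0717 FPKM inside the 0.0096 to 0.408 of the 10, so the low sum does not mark a female sample. The 8 female-biased genes, at 158 FPKM, lay inside the 18.9 to 170 of the 10, where KO HFD 1 alone set the upper end and KO HFD 2 was next at 87.6. Of the 8, Cux2 (2.75 FPKM, against 0.0282 to 0.108) and Acot3 (104 FPKM, against 1.58 to 74.95) lay above all 10. The others did not. The part of these in the Slco1a1 value was not tested. Slco1a4 (ENSMUSG00000030237, chr6:141805440-141856199), which takes up digoxin among other substrates, stood at 20.6, 0.278 and 0 FPKM in WT chow, 14.0, 20.5 and 10.5 in WT HFD, 20.2, 19.7 and 12.6 in KO chow and 3.40, 6.66 and 18.7 FPKM in KO HFD. KO HFD replicates 1 and 2 held the 2 lowest values of the 10, and replicate 3 lay within the other groups.

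Summed over the 4 uptake carriers, KO HFD held 300, 502 and 658 FPKM, against 799, 704 and 641 in WT HFD and 817, 695 and 626 FPKM in KO chow. Slc10a1 and Slco1b2 made up most of each sum. Slc10a1 gave 38.2% to 52.5% of it in the 10 libraries and Slco1b2 34.8% to 57.0%. KO HFD replicate 1 lay lowest of the 10, while replicate 3 lay among the replicates of the other groups.

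**Figure D1:**
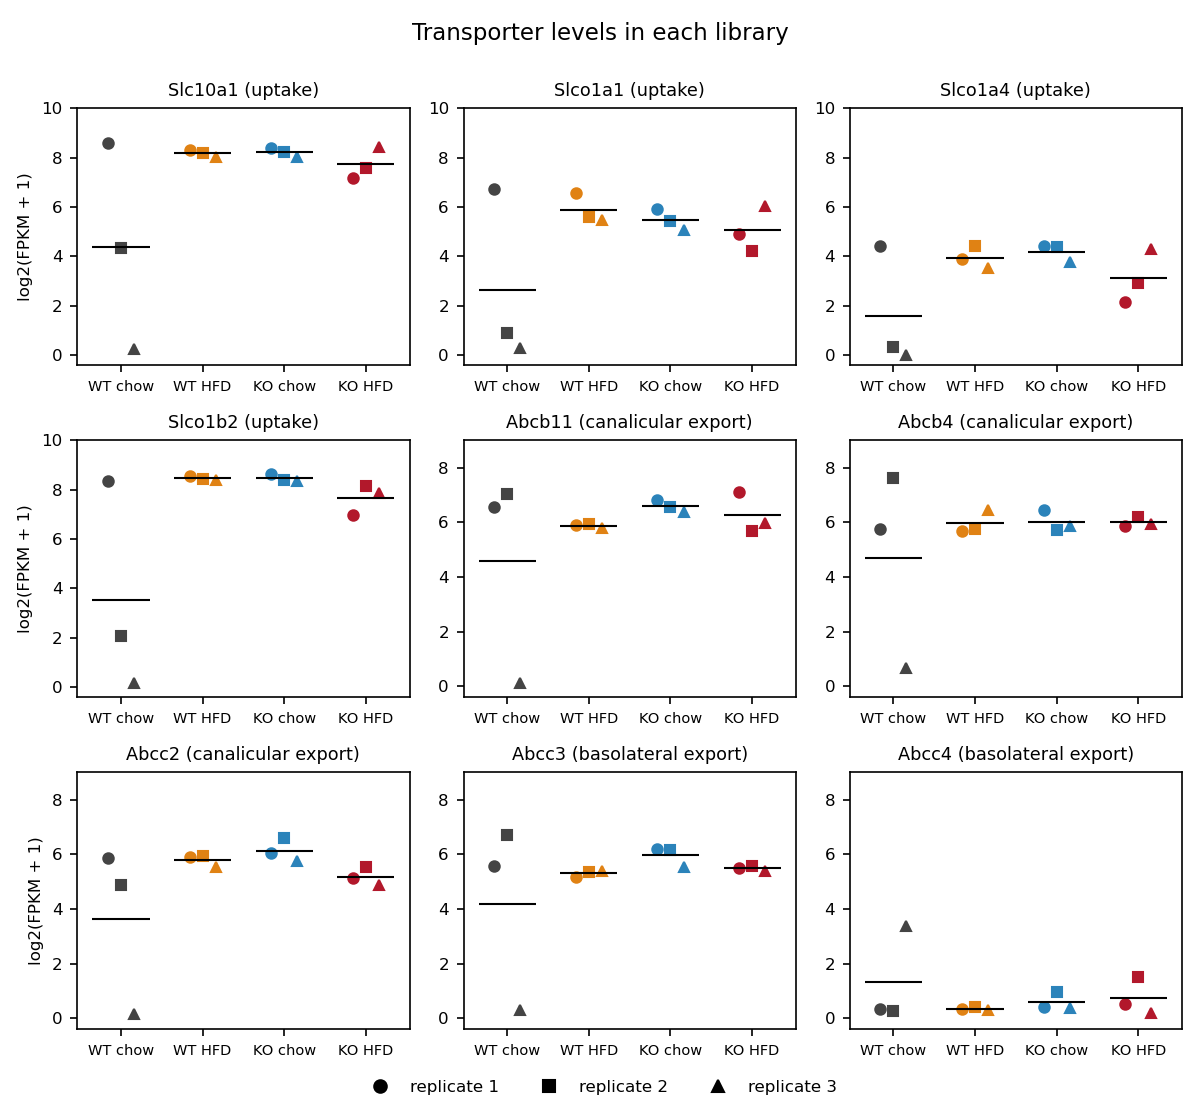
Level of each transporter in each library as log2(FPKM + 1) on the vertical axis, by group on the horizontal axis; marker shapes give the replicate and lines the group means. WT chow replicates 2 and 3 lie far below the rest for the 4 uptake carriers, and replicate 2 alone lies highest for Abcb4 and Abcc3.

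Among the canalicular exporters, Abcb11 (ENSMUSG00000027048, chr2:69238282-69342616) stood at 92.0, 129.6 and 0.0965 FPKM in WT chow, 58.6, 60.3 and 54.1 in WT HFD, 112, 92.3 and 82.5 in KO chow and 136, 49.7 and 62.0 FPKM in KO HFD. The 3 KO chow libraries all exceeded the 3 WT HFD libraries, a pair of groups that differ in both label and diet and were not contrasted. Abcc3 was separated in the same way (45.0 to 72.9 FPKM against 34.9 to 40.7), and the share of all genes that are was not counted. KO HFD was split, its first replicate the highest of all 12 and the other two near WT HFD. A pseudogene, Gm13614 (0 to 0.127 FPKM), and an antisense gene, Gm13613 (0 to 0.515 FPKM), lie opposite Abcb11, and reads from them cannot be told apart from Abcb11 reads if strand was not used in counting.

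Abcb4 (ENSMUSG00000042476, chr5:8893721-8959225) stood at 52.9, 198 and 0.595 FPKM in WT chow, 50.1, 53.2 and 87.2 in WT HFD, 85.9, 51.1 and 57.8 in KO chow and 56.8, 72.4 and 60.2 FPKM in KO HFD. Apart from WT chow replicates 2 and 3, it was the member with the closest group means: 63.5 ± 20.6 FPKM in WT HFD, 65.0 ± 18.4 in KO chow and 63.1 ± 8.21 in KO HFD. Abcc2 (ENSMUSG00000025194, chr19:43782192-43840740) stood at 56.9, 28.0 and 0.0982 FPKM in WT chow, 58.4, 59.4 and 45.8 in WT HFD, 64.6, 96.3 and 52.9 in KO chow and 33.6, 45.6 and 28.1 FPKM in KO HFD. Every KO HFD library lay below every WT HFD and KO chow library, although the gap to WT HFD was only that between 45.6 and 45.8 FPKM. Mean Abcc2 was 35.8 ± 8.94 FPKM in KO HFD, 54.5 ± 7.59 in WT HFD and 71.3 ± 22.4 in KO chow.

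Of the basolateral exporters, Abcc3 (ENSMUSG00000020865, chr11:94343295-94392997) stood at 46.3, 104 and 0.242 FPKM in WT chow, 34.9, 39.7 and 40.7 in WT HFD, 72.9, 69.6 and 45.0 in KO chow and 43.6, 46.6 and 41.2 FPKM in KO HFD. The KO HFD libraries all lay above the WT HFD libraries, by a margin as small as 41.2 against 40.7 FPKM. Abcc4 (ENSMUSG00000032849, chr14:118482692-118706219) stood at 0.275, 0.185 and 9.36 FPKM in WT chow, 0.256, 0.319 and 0.218 in WT HFD, 0.335, 0.928 and 0.300 in KO chow and 0.443, 1.84 and 0.148 FPKM in KO HFD. It was the only member that was highest in WT chow replicate 3, the library with brown fat markers and almost no hepatocyte markers.

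**Figure D2:**
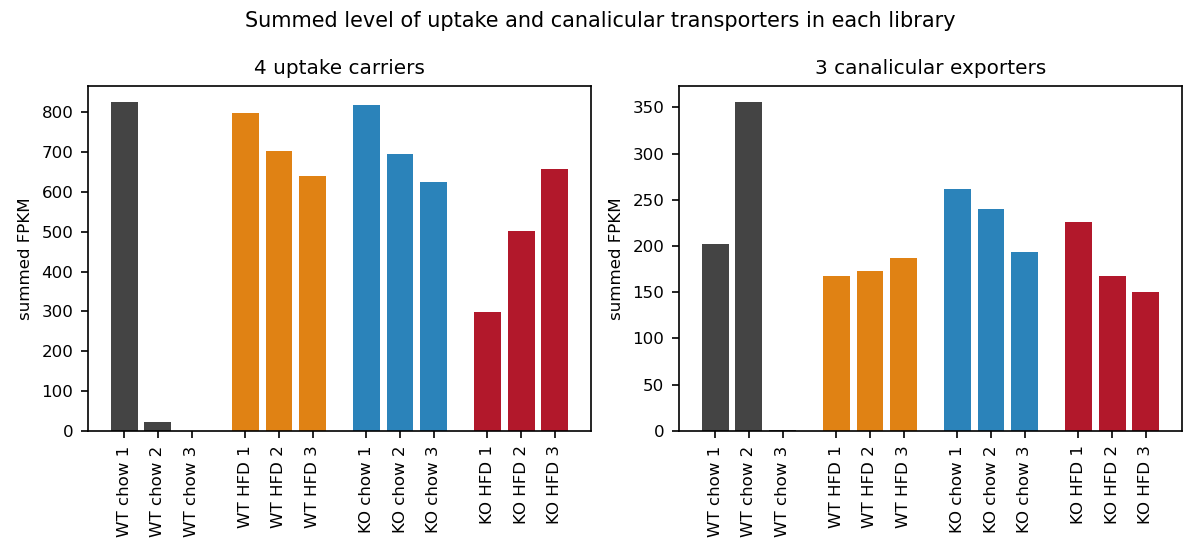
Summed FPKM of the 4 uptake carriers (left) and of the 3 canalicular exporters (right) in each library, coloured by group. The uptake sum is 23.4 in WT chow 2 and 300 in KO HFD 1, the 2 lowest after WT chow 3, whereas the canalicular sum is 355 and 226 in the same libraries.

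In 2 libraries low values of most uptake carriers came with high Abcb11. KO HFD replicate 1, set against the median of the other 9 libraries, held 0.476 times the Slc10a1, 0.182 times the Slco1a4 and 0.376 times the Slco1b2, but 2.19 times the Abcb11. Its Slco1a1, at 0.625 times the median, lay inside the 17.9 to 104.5 FPKM of the others. WT chow replicate 2, set against the median of the 10, held 0.0641 times the Slc10a1 and 0.00987 times the Slco1b2, but 1.79 times the Abcb11, 3.45 times the Abcb4 and 2.34 times the Abcc3. The canalicular exporter Abcc2 did not follow Abcb11, at 0.591 and 0.509 times the median in KO HFD 1 and WT chow 2. The sum over the canalicular exporters was 226 and 355 FPKM in these libraries, against 150 to 262 in the others with liver markers.

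Genes that FXR is known to act on were then read in the same libraries, chosen after their values were seen. Nr0b2 (SHP) stood at 109.9 FPKM in KO HFD 1 and 192 in WT chow 2, against 18.8 to 85.0 FPKM in the other 9. Slc51b, a subunit of the basolateral bile acid exporter, stood at 17.7 and 22.3 FPKM, against 0.101 to 1.23 in the other 9. Both genes were thus highest in the 2 libraries with high Abcb11. Genes outside this set could be too. Acot3 stood at 104 FPKM in WT chow 2 and 74.95 in KO HFD 1, against 1.58 to 6.11 in the other 9. Over all genes with a mean of at least 0.5 FPKM, deviations of these 2 libraries from their group means correlated at r = 0.498. This was the highest value of any pair from different groups. The WT chow mean includes the library with brown fat markers. The correlation therefore cannot show whether the shared pattern is particular to bile acid genes. Cyp7a1, the rate-limiting enzyme of bile acid synthesis, was 0.0636 FPKM in WT chow 2 but 9.93 in KO HFD 1, inside the 4.90 to 37.8 FPKM of the other 9. Nr1h4 itself was low in both, at 45.4 FPKM in KO HFD 1 and 8.15 in WT chow 2 against 54.7 to 71.7 in the other 9. These are single libraries of 2 different groups, so no test was made, and the cause was not tested.

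**Figure D3:**
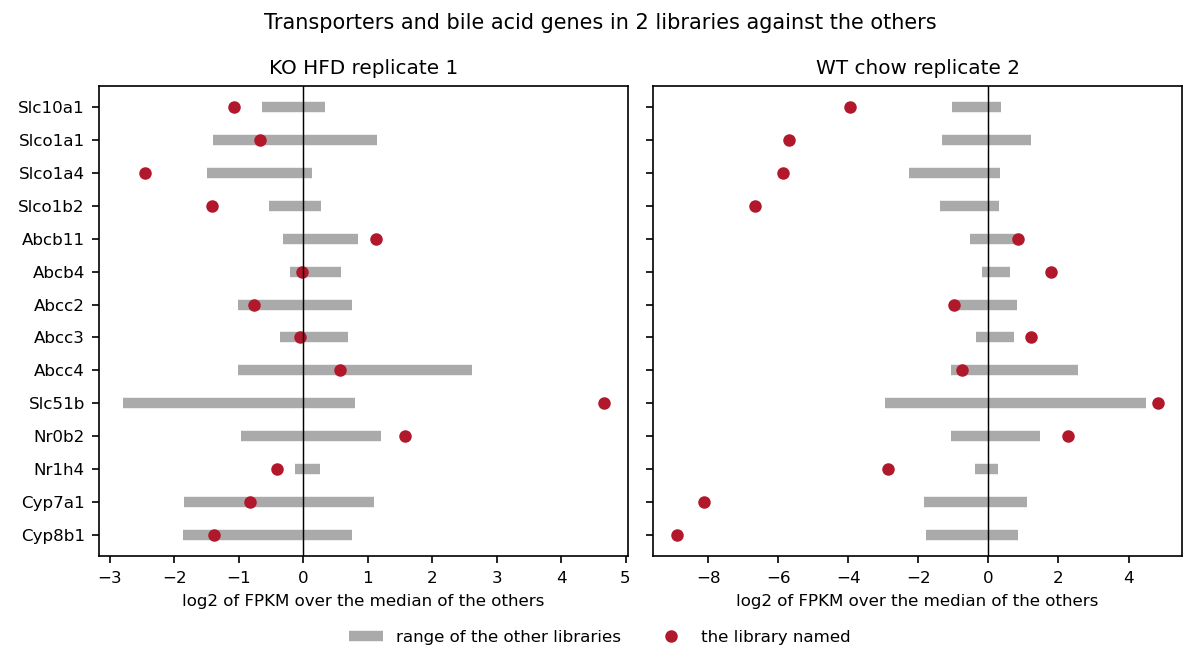
Level of each gene in 1 library as log2 of its FPKM over the median of the other libraries (points), with the range of those others (grey bars; 9 libraries for KO HFD replicate 1 and 10 for WT chow replicate 2, WT chow 3 left out of both). Slc51b and Nr0b2 lie above and the uptake carriers Slc10a1, Slco1a4 and Slco1b2 below the grey bars in both panels.

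The first comparison asked how KO and WT differ on the high fat diet. No member passed the threshold (limma, Benjamini-Hochberg adjusted p under 0.05) among 12 libraries, where 0.155% of 12251 tested genes did, or among 10, where 0.18% of 12246 did. At an unadjusted p under 0.05 limma gave 0 of 9 members with 12 libraries and 2 of 9 with 10, and limma-voom on recovered reads, which also called none, gave the same counts. Over all genes limma gave 156 of 12251 and 1533 of 12246 at that level, and limma-voom 126 and 1562. All 4 uptake carriers had negative log2 differences of FPKM + 1, namely -0.44 for Slc10a1, -0.80 for Slco1a1, -0.83 for Slco1a4 and -0.79 for Slco1b2. Without KO HFD replicate 1, in 9 libraries, they were -0.16, -0.73, -0.33 and -0.45. With the 10 libraries, Slco1b2 had a standard error of 0.27 and an adjusted p of 0.369, and Abcc2 a difference of -0.61 with a standard error of 0.24 and an adjusted p of 0.381. With 12 libraries the standard errors of these 2 genes were 1.55 and 1.12, and all 9 adjusted p values were 1. Abcb11 (0.37), Abcb4 (0.03), Abcc3 (0.18) and Abcc4 (0.41) had positive differences, none past the threshold. The KO HFD libraries lay wholly below WT HFD for 2 of 9 members, Slco1b2 and Abcc2, and wholly above for 1, Abcc3, against 12.4% and 7.37% of all genes. The median difference of the 9 was -0.44, against -0.03 over all genes tested.

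The second comparison asked what the diet changed within KO. With 12 libraries no member passed limma or limma-voom, against 0.155% of genes under limma. At an unadjusted p under 0.05 either gave 0 of 9 members, against 924 and 866 of 12251 genes. On the 10 libraries limma and limma-voom gave 3 and 4 of 9 at that level, against 3569 and 3593 of 12246 genes. Past the threshold limma-voom then called 1 of 9 members and 1221 of 12246 genes. With the 10 libraries Abcc2 fell on the high fat diet by 0.96 on the log2 scale (standard error 0.24, limma adjusted p = 0.0468, lower in 3 of 3 libraries than in every KO chow library). It was the only member called, against 6.28% of genes called lower and 1.57% called higher, so that 1 call among 9 does not set the transporters apart. Over 13 alternatives to this fit the adjusted p of Abcc2 ran from 0.0205 to 0.165, past the threshold in 5 of them. It was 0.0864 without KO HFD replicate 1 and 0.165 without KO chow replicate 2, the same steps that took the count over all genes from 961 to 40 and to 17. The count also fell to 31 and 32 without WT HFD replicate 1 or 2, which are not part of this comparison. Slco1b2 had a difference of -0.79 (standard error 0.27, adjusted p = 0.0912), Abcc3 of -0.47 (0.18, 0.122), Slco1a4 of -1.05 (0.48, 0.175) and Slc10a1 of -0.49 (0.29, 0.291). Slco1a1, Abcb11 and Abcb4 had differences of -0.41, -0.34 and -0.01, and Abcc4 of 0.16. Slco1b2 and Abcc2 were the 2 of 9 members whose KO HFD libraries lay wholly below KO chow, against 21.6% of genes, and none lay wholly above, against 9.98%.

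KO HFD replicate 1 weighed on several of these values. Without it, in 9 libraries, the diet difference in KO was -0.76 for Abcb11 (standard error 0.16, adjusted p = 0.0619) in place of -0.34. That of Slco1b2 became -0.45 in place of -0.79, that of Slc10a1 -0.20 in place of -0.49 and that of Slco1a4 -0.56 in place of -1.05. All 3 KO HFD libraries also held RNA of pancreatic acinar genes, with 8 markers summing to 41.4 to 70.0 FPKM against 0 to 5.03 in the other 9, where 5 to 8 of them were at 0. Hepatocyte markers summed to 36500, 40350 and 52440 FPKM in KO HFD, 44670 to 45060 in KO chow and 55940 to 66110 in WT HFD. The part of either in the transporter values was not tested.

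**Figure D4:**
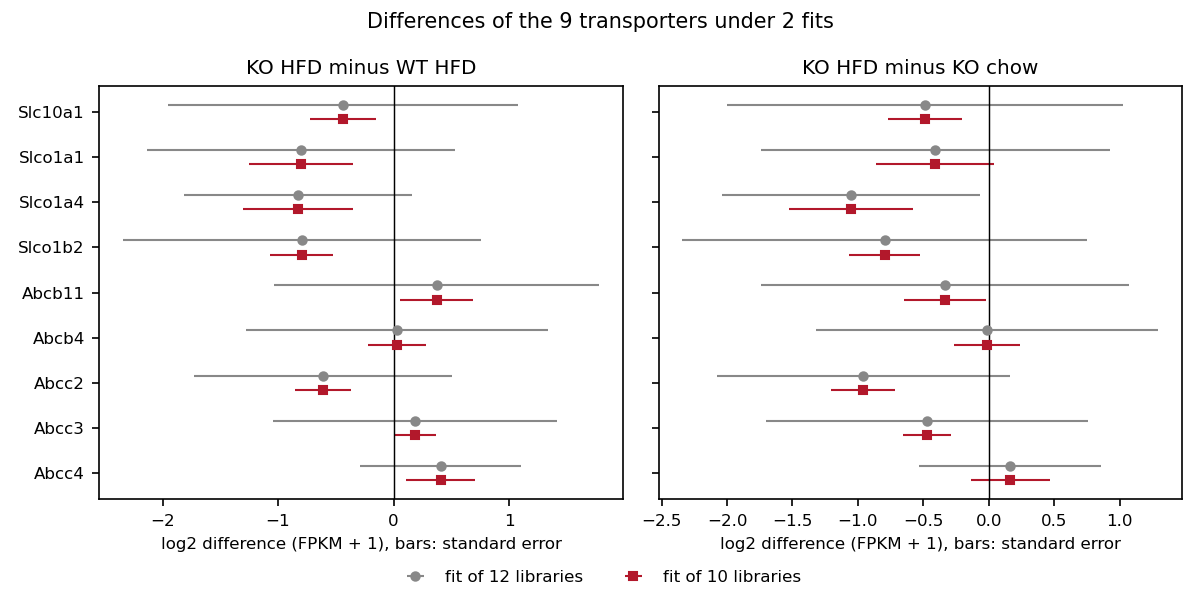
Log2 difference of FPKM + 1 (horizontal axis, bars are standard errors) of each transporter between KO HFD and WT HFD (left) and between KO HFD and KO chow (right), from the fits of 12 and of 10 libraries. The differences are the same in both fits, and the standard error of Slco1b2 drops from 1.55 to 0.27 once WT chow 2 and 3 are left out.

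Both comparisons that use WT chow turned on its replicates 2 and 3. Between KO and WT on chow, 0% of genes passed with 12 libraries and 0 of 9 members did under limma or limma-voom. At an unadjusted p under 0.05 there were 4 and 2 members, against 2584 and 2446 of 12251 genes. The log2 difference was nevertheless 4.93 for Slco1b2 (standard error 1.55, limma adjusted p = 0.195) and 3.84 for Slc10a1 (1.52, 0.209). With 10 libraries, 0.00817% of genes passed, and the differences of Slco1b2 and Slc10a1 were 0.13 and -0.35. The largest of the 9 was then Slco1a1 at -1.24 (standard error 0.64, adjusted p of 1). Between the diets in WT, 0% of genes passed with 12 libraries and 0.0245% with 10, and 0 of 9 members in either. With 12 libraries 4 members by limma and 2 by limma-voom reached an unadjusted p under 0.05, against 1807 and 1742 of 12251 genes. Slco1b2 moved from 4.93 to 0.13, Slc10a1 from 3.79 to -0.40 and Abcb11 from 1.31 to -0.67 between the 2 fits. For the interaction of label and diet, 0.122% of genes passed with 12 libraries and 0.0817% with 10. No member did, with adjusted p from 0.29 for Slco1b2 to 0.701 for Abcb4 in 12 libraries and from 0.504 for Abcc2 to 0.961 for Slc10a1 in 10. At an unadjusted p under 0.05 limma gave 2 of 9 members and limma-voom 1 with 12 libraries, against 2038 and 2056 of 12251 genes.

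Ratios of 2 members within a library do not depend on its scaling, and 16 comparisons of 4 ratios were made with exact two-sided permutation tests. With 3 libraries against 3 the smallest p possible is 0.1. The ratio of Slco1a1 to Slco1a4 had only 2 WT chow libraries, since Slco1a4 was 0 in WT chow 3. The log2 ratio of Abcc3, which exports to blood, to Abcc2, which exports to bile, was 0.32 ± 0.27 in KO HFD and -0.50 ± 0.30 in WT HFD (SD, n = 3 each), a difference of 0.82 with no overlap (exact p = 0.1, adjusted p = 0.533). In KO chow this ratio was -0.18 ± 0.33 (exact p = 0.2 against KO HFD, n = 3). The log2 ratio of Abcb11 to Slc10a1 was -1.65 ± 0.05 in KO chow and -2.32 ± 0.09 in WT HFD, each tight over its 3 libraries. In KO HFD it spread to -1.50 ± 1.26 and in WT chow to -0.06 ± 2.52. The WT chow libraries, the 2 deviating ones among them, did not overlap WT HFD (exact p = 0.1, adjusted p = 0.533). The ratio of Slco1a1 to Slco1a4 was 1.35 ± 0.24 in KO chow, 1.99 ± 0.77 in WT HFD and 2.11 ± 0.89 in KO HFD. No adjusted p of the 16 was below 0.533.

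Genes around the 9 members were read from lists of 16 other uptake carriers, 14 other efflux carriers, 16 regulators of transporter genes and 11 proteins that anchor or traffic the transporters. Of these, 13, 11, 16 and 11 were tested. None of the 51 passed limma with 12 libraries in any comparison. At an unadjusted p under 0.05, KO and WT on high fat diet gave the fewest, 0 of 51, against 156 of 12251 genes. KO and WT on chow gave the most, 24 of 51, against 2584 of 12251, with the 2 deviating WT chow libraries included. The median differences of the lists in that comparison were 2.11, 0.70, 1.08 and 0.65 for uptake, efflux, regulators and anchoring proteins. With 10 libraries they were 0.09, 0.03, 0.06 and 0.08. At an unadjusted p under 0.05, limma on the 10 gave 12 of 51 for KO and WT on high fat diet, against 1533 of 12246. It gave 16 of 51 for the diets in KO, against 3569 of 12246. Those past the threshold with 10 libraries were so for the diet in KO, all of them lower. They were 5 of 51, against 6.28% of all genes called lower in that comparison, and whether the lists differ from all genes was not tested. Among other uptake carriers 2 of 13 fell. These were Slc10a5, an orphan member of the bile acid carrier family (-1.59, standard error 0.30, limma adjusted p = 0.0323), and Slco2a1, a prostaglandin carrier (-1.16, 0.28, 0.0415). Slc10a5 stood at 9.41, 11.7 and 6.15 FPKM in KO chow and 1.18, 4.07 and 2.12 FPKM in KO HFD, without overlap. All 5 calls named here and in the next paragraph lay close to the threshold, with adjusted p from 0.0608 to 0.0834 without KO HFD replicate 1, and each passed in 5 or 6 of 13 alternatives.

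Among regulators 2 of 16 fell, against the same 6.28% of all genes: Ppara, the fatty acid receptor (-1.45, standard error 0.36, adjusted p = 0.0449), and Nr3c1, the glucocorticoid receptor (-0.67, 0.12, 0.0323). Ppara stood at 37.1, 35.6 and 21.9 FPKM in KO chow and 5.91, 19.7 and 9.94 FPKM in KO HFD. Of the anchoring and trafficking proteins 1 of 11 fell, Tmem30a, the partner subunit of phospholipid flippases (-0.78, 0.14, 0.0304), at 54.2, 51.2 and 49.4 FPKM in KO chow and 25.7, 30.5 and 32.9 in KO HFD. Among other efflux carriers 0 of 11 passed limma, and 2 had an unadjusted p under 0.05, against 3569 of 12246 genes. Abcg5 and Abcg8, which together export sterols, had differences of 0.40 and 0.15, and Abcc6 had -0.65 with an adjusted p of 0.0913. The lists' medians for the diet in KO were -0.20, 0.08, -0.20 and -0.35 for uptake, efflux, regulators and anchoring proteins, against -0.06 over all genes and -0.47 over the 9 members.

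The genes most like each member were taken by Pearson correlation of log2(FPKM + 1) over the 10 libraries, among genes with a mean of at least 1 FPKM. Slc10a1 and Slco1a4 were most like each other, at r = 0.957 (n = 10 libraries). Slco1b2 was most like Epha1 (r = 0.981) and Ghr, the growth hormone receptor (0.972), Abcb11 most like Stt3b (0.950) and Cdk16 (0.950), and Abcc2 most like Prkacb (0.979) and Klhl24 (0.978). Abcc3 was most like Acss3 (0.990) and Sec23b (0.965), and Abcb4 most like Arl1 (0.926) and Fam102a (0.919). The nearest genes to Slco1a1 were Syt3 (0.882) and 1110057K04Rik (0.874), and those to Abcc4 were Bbs5 (0.918) and Itm2b (0.904). All these correlations share the same 10 libraries, KO HFD replicate 1 among them, and are given as a description.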

How the data were processed

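RNA of 12 samples was sequenced, 3 per group. The authors deposited FPKM of 35275 genes beside each gene's length and coordinates. The submitters' processing notes list HTSeq 0.6.1, STAR, TopHat, CASAVA and a DESeq2 of version 2, and the builds GRCm38 and mm10. The strand setting, annotation release and filters were not given in the sources used here. FPKM multiplied by gene length gave whole reads for 100% of values (tolerance 0.1 of a read), which set the depth of each library.

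Genes with a mean of at least 0.5 FPKM were tested as log2(FPKM + 1), a scale that understates changes of low genes. The 12 libraries were fitted together, with a mean for each of the 4 groups, by limma 3.58.1 in R 4.3.3 (trended empirical Bayes, Benjamini-Hochberg, threshold 0.05). The same fit was also run on simulated data. P-values measure the spread between these samples. Ratios of members were compared with exact permutation tests in SciPy 1.17.1, and figures drawn with matplotlib 3.10.9.

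The members and lists were chosen with earlier results of these data known, so no adjusted p is given over a list alone. All 9 members were named. Of each list at most 4 genes were named, those past the threshold first and then the most abundant, and of the genes most like a member the 2 with the highest correlation. Slc51b, Nr0b2, Nr1h4, Cyp7a1 and Cyp8b1 were added after their values were seen. Alternatives were TPM, median-of-ratios scaling, a pseudocount of 0.1, no filter or a mean of 2 FPKM, limma-voom on the recovered reads, a replicate block, fits of only the groups compared, and fits without 1 or more libraries. Those on the 10-library fit were added after the data were seen.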

Additional observations from a re-analysis of the deposited data

How the results depend on the processing

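Counts are of genes past the threshold, and differences are log2 of FPKM + 1 unless said. No member passed with all 12 libraries, and several values of both comparisons with WT chow changed sign, large ones such as 3.84 for Slc10a1 between KO and WT on chow among them. The cause was not tested except where the setting names the libraries left out. Without WT chow 2 and 3, the differences between KO and WT on chow turned to -0.35 (Slc10a1), -1.24 (Slco1a1), -0.25 (Slco1a4) and 0.23 (Abcc4), and those between the diets in WT to -0.40 (Slc10a1), -0.85 (Slco1a1), -0.48 (Slco1a4), -0.67 (Abcb11), -0.070 (Abcc2) and -0.27 (Abcc3). The counts were then 1, 3 and 961 for KO and WT on chow, the diets in WT and the diets in KO. Leaving out KO HFD 1 as well gave 3, 4 and 40 and 24 for the interaction, with -0.052 for Abcb11 between KO and WT on high fat diet and 0.058 for Abcb4 between the diets in KO. Abcb4, near 0 in both high fat diet comparisons, turned to -0.090 with TPM between KO and WT and to 0.11 with median-of-ratios scaling between the diets in KO.

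Deviations of same-numbered replicates from their group means correlated at r = -0.504 to 0.131 over 18 pairs of libraries, against -0.249 to 0.498 over 36 with other numbers. With 3 libraries per group, and WT chow 3 in the WT chow mean, these ranges cannot exclude a shared batch or pairing. The highest value, 0.498, was that of WT chow 2 and KO HFD 1. A replicate block gave 4 genes for the interaction in place of 15. With a replicate block and without WT chow 2 and 3, the counts were 1, 1, 42 and 3 for KO and WT on chow, the diets in WT, the diets in KO and the interaction, and Abcc2 in the diets in KO had an adjusted p of 0.0516. KO minus WT on chow was then -0.44 for Slc10a1, -0.91 for Slco1a1, -0.52 for Slco1a4, -0.0039 for Slco1b2 and 0.10 for Abcc4. The diet difference in WT was -0.49, -0.51, -0.75, -0.0041, -0.30, -0.086 and -0.23 for Slc10a1, Slco1a1, Slco1a4, Slco1b2, Abcb11, Abcc2 and Abcc3.

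With a pseudocount of 0.1 the interaction count was 6. Without a filter the counts were 4 for KO and WT on chow, 31 for the diets in KO and 25 for the interaction. With a mean of at least 2 FPKM they were 3 for KO and WT on high fat diet, 3 for the diets in KO and 1 for the interaction. Fitting only the groups compared gave 29 for the diets in KO, limma-voom 12 for the diets in KO and 0 for the interaction, and TPM 2237 in the 10-library fit of the diets in KO.

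Leaving out each replicate in turn gave 0 to 2981 genes for KO and WT on chow, 0 to 2435 for the diets in WT and 5 to 2265 for the interaction, the highest count each time without WT chow 1, and 17 (without KO chow 2) to 1533 (without KO chow 3) for the diets in KO in 10 libraries. KO minus WT on chow then ran from -0.20 to 3.24 for Abcb11, -0.69 to 2.79 for Abcb4, -0.18 to 3.02 for Abcc3 and -1.28 to 0.28 for Abcc4. The diets in WT ran from -0.91 to 2.54, -0.73 to 2.75, -0.84 to 2.36 and -1.52 to 0.040 for the same genes. On high fat diet KO minus WT ran from -0.052 to 0.66 for Abcb11 and -0.12 to 0.28 for Abcb4. The diets in KO ran from -0.89 to 0.0070 for Slco1a1, -0.16 to 0.20 for Abcb4 and -0.22 to 0.44 for Abcc4. Without WT chow 1, which leaves WT chow as its 2 deviating libraries, Slc10a1, Slco1a1, Slco1a4, Slco1b2 and Abcc2 passed in both comparisons with WT chow.

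Of the log2 ratios, Slco1a1 to Slco1a4 ran from -0.38 to 0.49 between KO and WT on high fat diet and from -0.37 to 0.40 between the diets in WT, where a pseudocount of 0.1 gave 0.18. Abcc4 to Abcb11 ran from -6.81 to 1.21, -0.70 to 1.28, -6.89 to 1.13 and -0.78 to 1.20 for KO and WT on chow, KO and WT on high fat diet, the diets in WT and the diets in KO, and Abcb11 to Slc10a1 from -0.57 to 0.64 for the diets in KO. In the 10-library fit of the diets in KO, Slco1b2 passed with TPM (-0.99, adjusted p = 0.0387) and Abcc3 without KO chow 3 (-0.69, 0.0211), while Abcc2 did not with median-of-ratios scaling (-0.84, 0.0587) or in 7 of the 9 fits that leave out 1 more library. Of the other genes named, Abcg8 turned to -0.037 with TPM. In the 10 libraries depth limits Abcc4 most, since a library held as few as 15 of its reads; in WT chow 3 other members held fewer, Slco1a4 0 and Slc10a1 5.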
